A study of Mus musculus with 25 samples.

Results

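The 32 genes described here encode lysosomal proteins: 10 cathepsins, 2 other peptidases, 8 enzymes that break down sugar chains, 6 proteins that handle lipids or help those that do, 5 proteins of the lysosomal membrane and the transcription factor Tfeb. They were taken by gene symbol from a named list, out of 43693 genes in the count table of sorted cells, and found in the other count tables by gene identifier. All 32 passed the filter on low counts in the sorted and cultured cells, as did 31 in tissue, where Galns was not analysed here.

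The study sequenced RNA from 25 mouse libraries to follow astrocytes after a contusion of the spinal cord and to test the long non-coding RNA Zeb2os in cultured astrocytes. Sorted cells came from GFAP-Cre-/+:R26-tdT-/+ mice, in which Cre driven by a GFAP promoter switches on the red reporter tdTomato, at 7 days (3 libraries), 1 month (3) and 3 months (2, replicates 1 and 3) after a contusion of 60 kdyn at T9, and from sham mice of that genotype (3) that had only the laminectomy and were taken at 7 days. The reporter stays on in any cell whose ancestors used the promoter, and cells were freed by enzymes, cleared of myelin with beads and sorted by their red signal. Whole tissue of the lesion epicentre came from C57BL/6 mice at 3 months (3) and at 1 month (3) after the same contusion, and no sham tissue was analysed here. Each sorted or tissue library pooled 3 mice. Primary astrocytes from C57BL/6 brains of postnatal day 4 to 7 carried a lentivirus against Zeb2os (2 libraries, genotype written as Zeb2os -/-) with 2 wild-type controls, or one against Zeb2 (2 libraries, Zeb2 -/-) with 2 wild-type controls of their own, all under puromycin at 1 µg/ml. Selection began 24 h after infection in the first set and 48 h after it in the second.

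Lysosomes are acidic organelles in which proteins, sugar chains, lipids and nucleic acids delivered by endocytosis, phagocytosis and autophagy are taken apart. Most of their enzymes are made in the endoplasmic reticulum, tagged with mannose-6-phosphate in the Golgi and activated by the acid that a proton pump provides. Tfeb and its relatives Tfe3 and Mitf bind E-box sequences of the CACGTG kind in the promoters of many lysosomal genes, a set known as the CLEAR network. In the injured cord the lysosomes of microglia and macrophages are known for digesting myelin debris, and astrocytes also hold lysosomes that take up debris.

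Promoters are shown for 4 members because the core letters of the Tfeb site lie in some of these windows and not in others that belong to genes with large changes. Windows run from 250 bases before to 50 bases after a RefSeq start of the gene (build GRCm38.p6), 5′ to 3′ on the gene's own strand. Capitals mark CACGTG. Gene bounds printed further on come from GENCODE, and its start of a gene can differ from that of RefSeq. Lamp1 lies at chr8:13158911-13159210 on the plus strand, Mcoln1 at chr8:3500269-3500568 on the plus strand, Ctsd at chr7:142387778-142388077 on the minus strand and Ctss at chr3:95526536-95526835 on the plus strand.
Lamp1: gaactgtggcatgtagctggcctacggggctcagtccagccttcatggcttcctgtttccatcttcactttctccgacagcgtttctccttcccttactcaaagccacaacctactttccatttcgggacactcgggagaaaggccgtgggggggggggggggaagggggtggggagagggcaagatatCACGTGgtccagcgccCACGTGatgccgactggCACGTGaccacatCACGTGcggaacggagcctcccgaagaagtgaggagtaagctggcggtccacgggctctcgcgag
Mcoln1: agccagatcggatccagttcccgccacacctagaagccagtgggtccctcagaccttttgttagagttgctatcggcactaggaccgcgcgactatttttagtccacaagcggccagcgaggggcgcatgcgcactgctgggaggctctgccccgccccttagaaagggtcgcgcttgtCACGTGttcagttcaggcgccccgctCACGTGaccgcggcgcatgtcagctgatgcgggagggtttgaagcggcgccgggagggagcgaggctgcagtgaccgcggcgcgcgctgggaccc
Ctsd: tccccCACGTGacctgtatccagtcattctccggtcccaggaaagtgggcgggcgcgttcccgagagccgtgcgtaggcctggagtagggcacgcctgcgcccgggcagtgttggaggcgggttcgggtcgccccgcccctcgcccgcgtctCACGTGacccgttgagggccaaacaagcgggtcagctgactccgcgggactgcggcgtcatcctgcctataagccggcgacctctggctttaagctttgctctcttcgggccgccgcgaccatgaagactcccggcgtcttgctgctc
Ctss: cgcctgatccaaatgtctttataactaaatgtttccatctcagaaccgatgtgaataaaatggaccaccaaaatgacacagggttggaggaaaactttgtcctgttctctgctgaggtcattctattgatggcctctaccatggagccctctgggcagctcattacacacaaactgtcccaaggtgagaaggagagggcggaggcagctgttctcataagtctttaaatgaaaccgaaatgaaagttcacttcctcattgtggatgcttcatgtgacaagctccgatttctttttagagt
The Lamp1 window held the core motif 4 times, at -61, -45, -28 and -15 from the start, and the Mcoln1 window held it at -71 and -45. Ctsd, one of the members that changed most after injury, held it at -245 and -98 from its RefSeq start. The GENCODE gene begins at 142388038, inside this window, so these positions hold for the RefSeq start alone. The window of Ctss, another such member, did not hold it, which says only that these letters are not in these 300 bases.

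RefSeq windows were matched for 27 of the 32 members. These had 32 windows, as some genes have more than 1 start, and a gene counted when any of its windows held a motif. Windows of Ctsb, Ctsh, Npc1, Galns and Asah1 were not used here. CACGTG, which reads the same on both strands, was present for 10 of the 27 members (37.0%), for 8 of 46 other lysosomal genes with a window (17.4%) and for 8.09% of all 27025 genes with one. The 10 were Ctsa, Ctsd, Ctsf, Ctsl, Gaa, Glb1, Lamp1, Lgmn, Mcoln1 and Naglu, of which Ctsa and Lgmn also had a window without it. The longer form TCACGTGA, which contains the core, was present for 3 of the 27 members (11.1%), Ctsa, Ctsd and Mcoln1, for 5 of the 46 other lysosomal genes (10.9%) and for 1.12% of all genes with a window. A form of 10 bases that contains both was also searched. It was present for 0 of the 27 members and for 1 of the 46 other lysosomal genes (2.17%). Of all genes with a window 0.37% held it. These matches describe sequence and were not read as binding sites.

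Total counts ran from 15.7 to 50.2 M reads in sorted libraries, 15.4 to 27.1 M in tissue, 45.6 to 158 M in the Zeb2os set and 29.0 to 65.4 M in the Zeb2 set. The sorted libraries had lower levels of astrocyte markers than tissue. Summed over 12 astrocyte markers, they held between 4919 and 6507 CPM (the counts of a gene scaled to the library total) in sham libraries, between 2542 and 3032 at 7 days, between 1534 and 1594 at 1 month, and between 1324 and 1492 at 3 months, while tissue held 12035 to 12475 at 3 months and 14274 to 15615 at 1 month. At 1 month sorted cells had less Gfap, the intermediate filament of astrocytes, than tissue did, by a log2 change of -5.29 ± 0.112 (edgeR adjusted p = 1.57e-10). Oligodendrocyte precursor markers (8 genes) summed to between 6742 and 10834 CPM in sorted libraries and to between 656 and 841 CPM in tissue. The cells, labelled astrocytes, are therefore called sorted cells. Among the sham libraries replicate 1 stood apart, with 2606 CPM over 18 microglia and macrophage markers beside 756 and 606 CPM in replicates 2 and 3, and it had the highest sham level of 28 of the 32 genes. In tissue at 3 months replicate 1 stood apart, with 2406 CPM over 8 neutrophil markers beside 263 and 254 CPM. Calls of members that changed without either library are given, with values for some of the members.

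Most of the 32 genes rose in the sorted cells after injury, led by cathepsins D, S, Z, C and B and by progranulin. At 7 days against sham 24 of 32 rose and 1 fell, where 9.87% of 24286 genes tested rose and 8.41% fell. At 1 month 20 rose and 1 fell, where 6.23% and 5.83% of all genes did. At 3 months 25 rose and 0 fell, where 6.78% and 4.93% of all genes did. The median log2 change of the 32 genes was 1.22 at 7 days, 1.30 at 1 month and 2.15 at 3 months, beside -0.06, -0.02 and -0.10 for all genes. These comparisons share the same 3 sham libraries, so they are not independent of each other. Rises of at least 2-fold were called for 19, 18 and 21 members at the 3 times, where 5.94%, 4.32% and 5.37% of all genes rose that far. In bulk samples such as these, fewer cells of a type and less RNA per cell cannot be told apart. The later groups also differ from sham in the time since surgery.

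The same 20 genes were called higher at all 3 times: Ctsa, Ctsb, Ctsc, Ctsd, Ctsh, Ctsk, Ctsl, Ctss, Ctsz, Lgmn, Hexa, Galns, Gusb, Man2b1, Glb1, Naglu, Npc2, Lipa, Grn and Lamp1. Another 6, Tpp1, Psap, Asah1, Lamp2, Cd63 and Mcoln1, were called higher at 1 or 2 of the times. Ctsf was called lower at 7 days and 1 month. The remaining 5, Gaa, Neu1, Npc1, Scarb2 and Tfeb, were not called at any time. Without sham replicate 1, 26 members were higher and 1 lower at 7 days, 20 were higher and 1 lower at 1 month, and 27 were higher and 0 lower at 3 months. Without sham replicate 3, 2 members were lower at 7 days. Leaving out 1 library at a time ended the calls of Tpp1 and Cd63 at 7 days, of Ctsf, Ctsk, Ctsl, Lgmn and Lamp1 at 1 month, and of Ctsk, Tpp1, Psap, Asah1, Lamp1, Cd63 and Mcoln1 at 3 months. The fewest called higher were 22 at 7 days, without sham replicate 3, 16 at 1 month, without 1-month replicate 2 or 3, and 19 at 3 months, without 3-month replicate 3. With sham and a single injured group fitted alone, 21 were higher at 7 days, 18 at 1 month and 18 at 3 months. That fit ended the calls of Ctsk, Tpp1 and Cd63 at 7 days, of Ctsk and Lamp1 at 1 month, and of Ctsk, Tpp1, Psap, Asah1, Lamp1, Cd63 and Mcoln1 at 3 months.

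**Figure D1:**
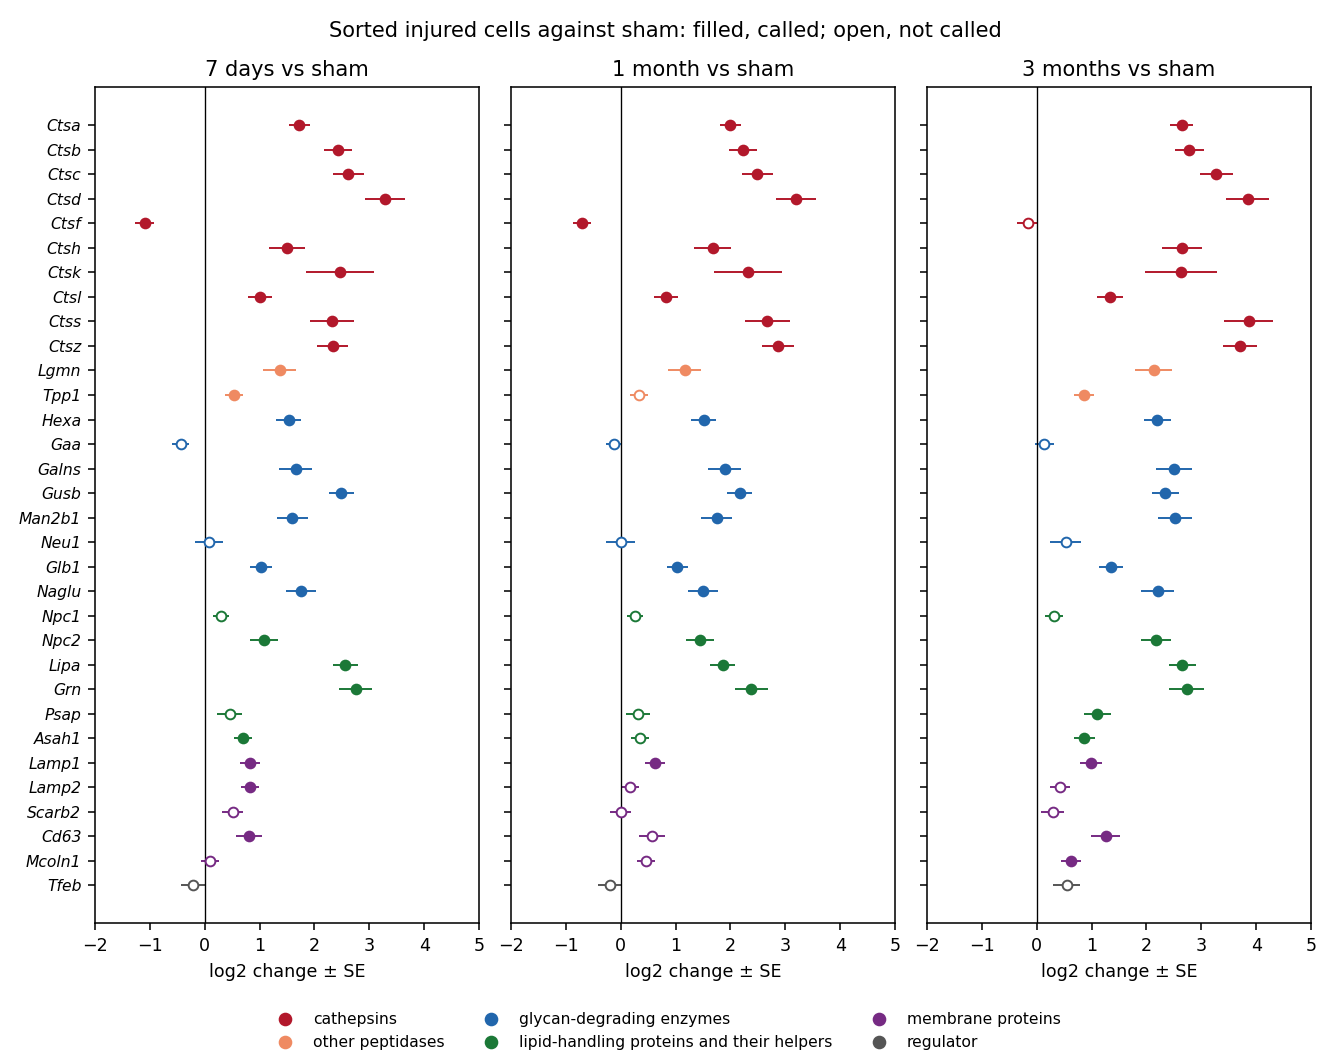
Log2 change against sham of each of the 32 genes in sorted cells at 7 days, 1 month and 3 months, with standard errors, grouped and coloured by role. Filled points passed the test (edgeR adjusted p under 0.05), and the cathepsins reach the largest values, 3.28 for Ctsd at 7 days and 3.86 for Ctss at 3 months.

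The members held between 0.579 and 0.856% of all counts in sham libraries, between 1.39 and 1.93% at 7 days, between 1.36 and 1.87% at 1 month, and between 2.27 and 2.70% at 3 months. The lowest injured library was therefore above the highest sham library, and both 3-month libraries were above all others. Markers of microglia and macrophages moved in the same way. Fibroblast and pericyte, endothelial and oligodendrocyte markers were also higher in every injured library than in every sham library. The 18 microglia and macrophage markers summed to 606, 756 and 2606 CPM in sham libraries, between 6469 and 9625 at 7 days, between 5297 and 8415 at 1 month, and between 12977 and 17161 at 3 months. None of these markers was at 0 throughout a group. At 7 days 15 of the 18 rose, at 1 month 15 and at 3 months 16, and the 3 first on that list were Aif1, with log2 changes of 3.05, 2.31 and 3.39, Csf1r, with 1.08 (not called), 1.04 (not called) and 1.99, and Cx3cr1, with 1.25, 1.35 and 2.43. The 8 fibroblast and pericyte markers summed to 3371 to 3538 CPM at 7 days, against 134 to 590 CPM in sham. They then summed to 1856 to 2082 CPM at 1 month and 1484 to 1534 CPM at 3 months. The 8 endothelial markers summed to 491 to 583 CPM at 7 days, against 61.9 to 217 CPM in sham, and to 277 to 305 CPM at 1 month and 445 to 617 CPM at 3 months. The 8 oligodendrocyte markers summed to 1805 to 1905 CPM at 7 days, against 476 to 1393 CPM in sham. They then summed to 1501 to 1738 CPM at 1 month and 1867 to 1937 CPM at 3 months. The 8 neuron markers summed to between 127 and 176 CPM over all sorted libraries. Of the 12 astrocyte markers, 10 fell at 7 days, 10 at 1 month and 9 at 3 months, and only Gfap rose, at 7 days, by 2.40 ± 0.245. The part of these cell types in the changes of the lysosomal genes was not tested.

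**Figure D2:**
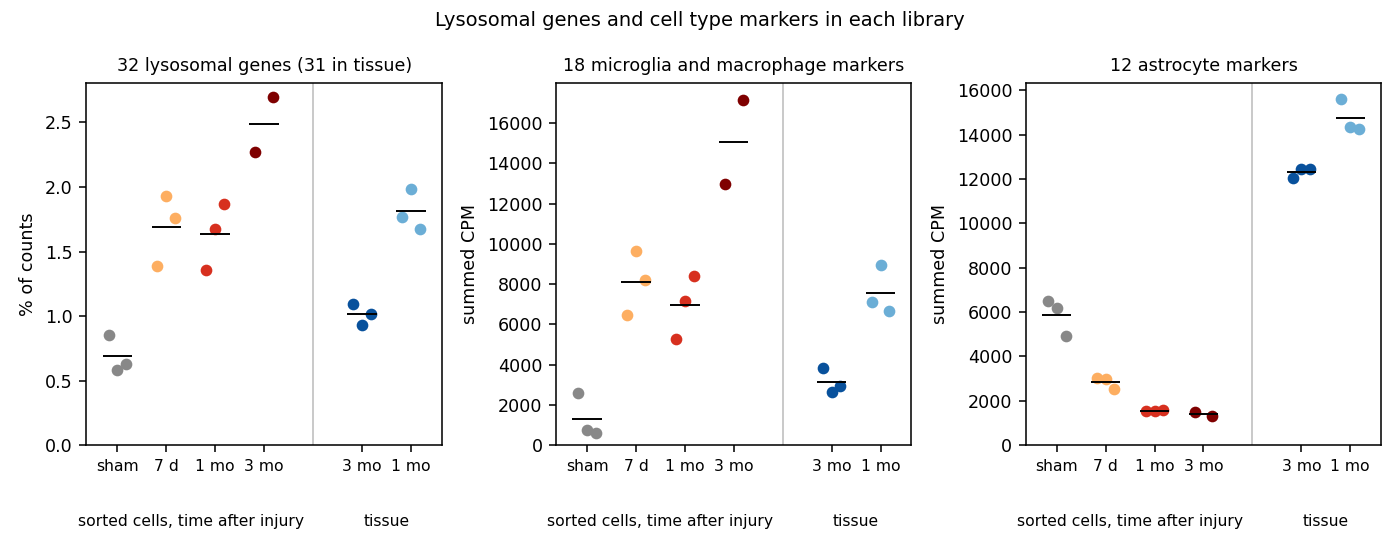
Share of all counts held by the lysosomal genes (percent), summed level of 18 microglia and macrophage markers (CPM) and summed level of 12 astrocyte markers (CPM) in each sorted and tissue library. The lysosomal share is lowest in sham, at 0.579 to 0.856%, and highest in sorted cells at 3 months, at 2.27 to 2.70%.

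Among the 10 cathepsins, 9 rose at each of the 3 times, and the tenth, Ctsf, fell at the first 2 of them. Their median log2 change was 2.32 at 7 days, 2.27 at 1 month and 2.72 at 3 months. Ctsd encodes cathepsin D, the main aspartic protease of the lysosome, and lies on chromosome 7 from 142375911 to 142388038 on the minus strand (GRCm38). It had 478, 186 and 183 CPM in sham, 1987, 3270.1 and 2979 CPM at 7 days, 1912, 2704 and 3168 CPM at 1 month, and 3238 and 4867 CPM at 3 months. Every injured library was above every sham library, and the log2 change was 3.28 ± 0.362 at 7 days (edgeR adjusted p = 1.79e-05), 3.20 ± 0.361 at 1 month (3.46e-05) and 3.84 ± 0.387 at 3 months (1.03e-05). Without sham replicate 1 these changes were 3.89, 3.81 and 4.46. Exons of Ctsd share 808 of 2351 bases with Gm49369, so reads from the 2 genes may have been split or left out.

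Ctss, which encodes a cysteine protease that stays active at neutral pH and that antigen-presenting cells use to trim the invariant chain, had 379, 116 and 95.9 CPM in sham, 849, 1108 and 990.2 CPM at 7 days, 939.8, 1294 and 1538 CPM at 1 month, and 2558 and 3176 CPM at 3 months. The groups did not overlap with sham at any time, and the 3-month libraries stood above both earlier injured groups. Its log2 change was 2.32 ± 0.397 at 7 days, 2.67 ± 0.403 at 1 month and 3.86 ± 0.442 at 3 months (edgeR adjusted p = 0.000687, 0.000432 and 3.23e-05). Sham replicate 1 carried most of the sham level, and without it the values were 3.21, 3.57 and 4.76. Ctsh, an aminopeptidase, was moved in the same way by that library, with changes of 1.50, 1.68 and 2.65 with it and 2.18, 2.36 and 3.33 without it.

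Ctsb, an abundant cysteine protease, had 710.4, 376 and 524 CPM in sham, 2177, 3442 and 3068 CPM at 7 days, 2035, 2587 and 2949.7 CPM at 1 month, and 3218 and 4169.5 CPM at 3 months. Ctsz, a carboxypeptidase, had 124, 57.0 and 62.9 CPM in sham, 326, 479 and 425 CPM at 7 days, 449, 632 and 694 CPM at 1 month, and 910.5 and 1206 CPM at 3 months. For both genes each injured library exceeded each sham library, and the log2 changes were 2.43, 2.23 and 2.78 for Ctsb and 2.33, 2.86 and 3.70 for Ctsz. Ctsc, the dipeptidyl peptidase that activates serine proteases of immune cells, had 35.6, 14.9 and 36.5 CPM in sham, 173, 213 and 147 CPM at 7 days, 132, 168 and 189 CPM at 1 month, and 279 and 280.3 CPM at 3 months. It changed by 2.62 ± 0.282, 2.49 ± 0.281 and 3.27 ± 0.304 (edgeR adjusted p = 1.55e-05, 3.46e-05 and 5.25e-06).

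Ctsl, a cysteine endopeptidase, rose less, by 1.00, 0.83 and 1.33, with 283, 154 and 259.8 CPM in sham, 391, 496 and 510.4 CPM at 7 days, 345, 427 and 462 CPM at 1 month, and 545 and 622 CPM at 3 months. Exons of Ctsl overlap the antisense gene Gm47123 over 26.8% of their length, and the strand setting of the counts is not given in the sources used here. Ctsk, the collagen-degrading cathepsin of osteoclasts, was the scarcest member in sham, with 1.25, 0.302 and 3.51 CPM, and had 11.0, 8.82 and 7.50 CPM at 7 days, 8.50, 8.55 and 7.45 CPM at 1 month, and 13.0 and 7.33 CPM at 3 months. Its log2 changes of 2.47, 2.31 and 2.63 became 3.54, 3.38 and 3.70 without sham replicate 3. The call at 1 month was lost without sham replicate 1, at an edgeR adjusted p of 0.0545. It was also lost without any 1 of the 1-month libraries, and with sham and the 1-month group fitted alone (edgeR adjusted p = 0.104). Ctsa, which protects 2 glycosidases as well as acting as a carboxypeptidase, rose by 1.72 ± 0.192, 2.00 ± 0.194 and 2.65 ± 0.210.

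Ctsf was the member that fell. This cysteine cathepsin had 114, 98.9 and 75.3 CPM in sham, 43.7, 43.9 and 47.0 CPM at 7 days, 62.3, 61.2 and 53.1 CPM at 1 month, and 85.4 and 85.9 CPM at 3 months. The 7-day and 1-month libraries lay below all sham libraries, and the 3-month libraries lay within the sham range. Its log2 change was -1.10 ± 0.170 at 7 days (edgeR adjusted p = 0.000308), -0.71 ± 0.169 at 1 month (0.0114) and -0.17 ± 0.189 at 3 months (0.640). The call at 1 month was lost without replicate 2 or replicate 3 of the 1-month group.

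**Figure D3:**
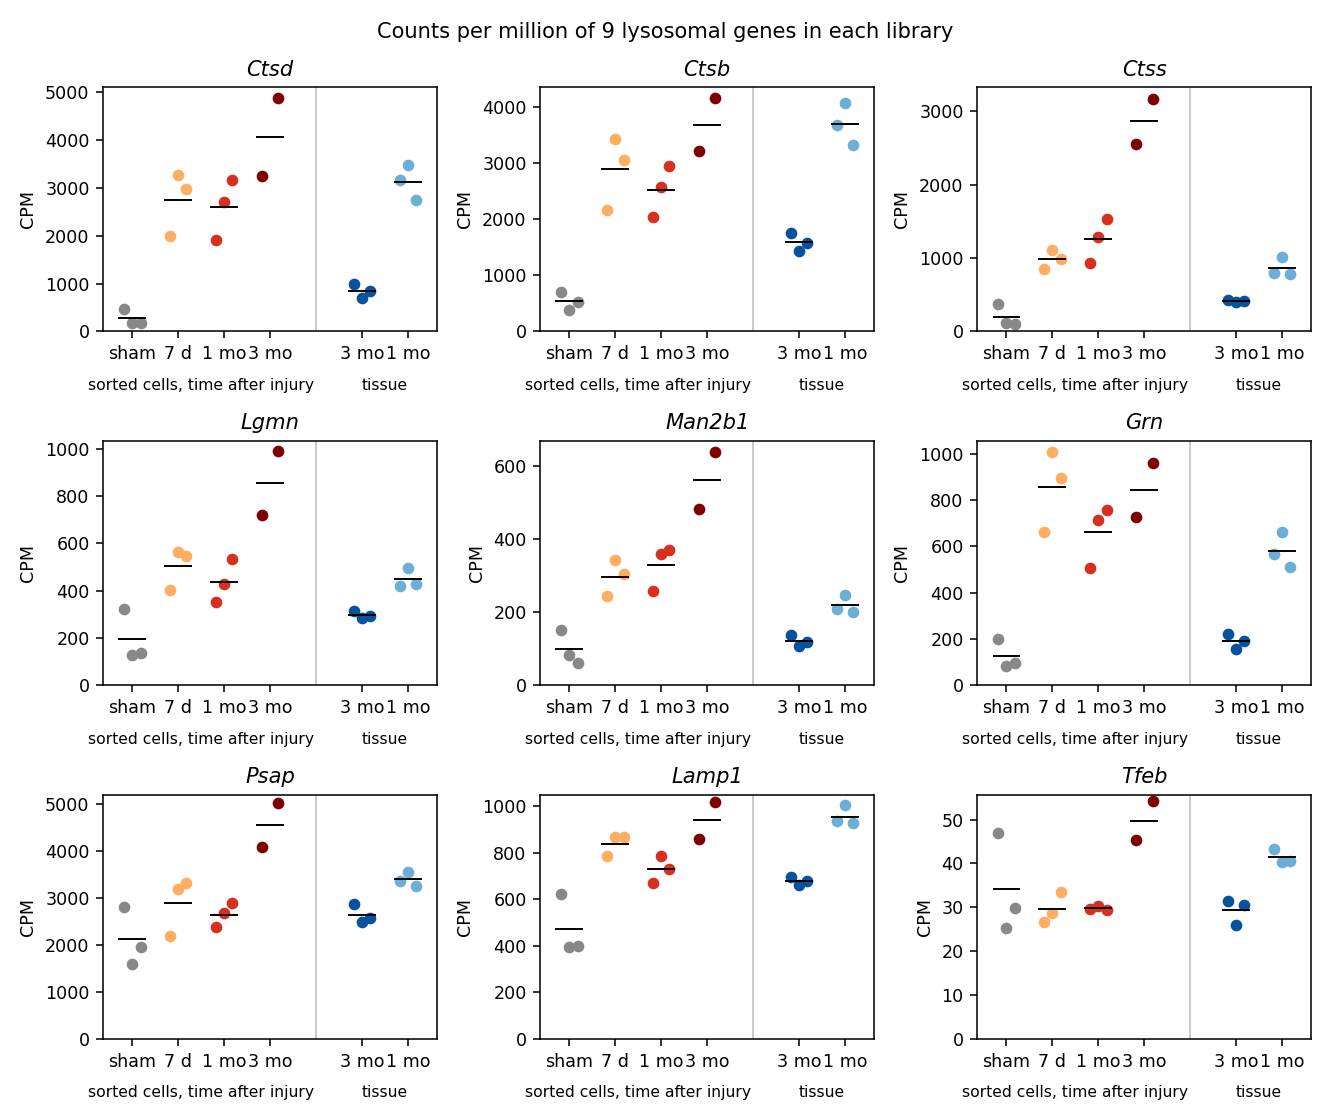
Level of 9 of the genes (CPM, linear axes) in each library of sorted cells and of tissue, with points for libraries and bars for group means, each table scaled on its own. Ctsd, Ctss and Grn lie far above sham in every injured sorted library, Psap starts high in sham, and the levels of most of the 9 are lower in tissue at 3 months than at 1 month.

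The other peptidases are legumain, an asparagine-specific protease that cuts several cathepsins into their mature chains, and Tpp1, which removes tripeptides. Lgmn had 324, 127 and 137 CPM in sham, 402, 564 and 547 CPM at 7 days, 352, 429.8 and 533 CPM at 1 month, and 722 and 990.3 CPM at 3 months. Sham replicate 1 was close to the lowest 1-month library, but no injured library lay below it, and Lgmn rose by 1.37 ± 0.304, 1.16 ± 0.303 and 2.13 ± 0.332. Tpp1 was called at 7 days (0.53 ± 0.166, edgeR adjusted p = 0.0358) and 3 months (0.86 ± 0.183, 0.00545), and had 0.33 ± 0.166 at 1 month (0.237).

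Of the 8 enzymes that break down sugar chains, Hexa, Galns, Gusb, Man2b1, Glb1 and Naglu rose at all 3 times, and the list's median change was 1.56, 1.51 and 2.20. Gusb, which encodes beta-glucuronidase, had the largest change of them at 7 days, 2.49 ± 0.233 (edgeR adjusted p = 4.05e-06), with 49.0, 35.4 and 25.2 CPM in sham, 167, 224 and 227 CPM at 7 days, 132, 172 and 189.8 CPM at 1 month, and 184 and 188 CPM at 3 months. Hexa, the alpha subunit of beta-hexosaminidase, which degrades GM2 ganglioside, had 149, 85.8 and 123 CPM in sham, 292, 379 and 360.0 CPM at 7 days, 263, 359.7 and 396 CPM at 1 month, and 461 and 633 CPM at 3 months. Neither gene overlapped with sham at any time.

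Man2b1, the lysosomal alpha-mannosidase, had 151, 81.8 and 61.7 CPM in sham, 244, 343 and 304 CPM at 7 days, 258, 359 and 372 CPM at 1 month, and 484 and 641 CPM at 3 months. Glb1, the beta-galactosidase used as a stain for senescent cells, had 42.4, 39.4 and 30.1 CPM in sham, 62.8, 81.8 and 83.5 CPM at 7 days, 62.6, 81.1 and 85.6 CPM at 1 month, and 82.8 and 108 CPM at 3 months. Man2b1 rose by 1.60, 1.75 and 2.52 and Glb1 by 1.03, 1.03 and 1.35, with all injured libraries above all sham libraries. Naglu, which removes N-acetylglucosamine from heparan sulfate, rose by 1.76, 1.50 and 2.20, and Galns, which takes sulfate off keratan and chondroitin sulfate, by 1.66, 1.89 and 2.50.

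The 2 that were not called were Gaa, the acid alpha-glucosidase that degrades glycogen, and Neu1, a sialidase. Gaa had 148, 183 and 184 CPM at 7 days, against 255, 231 and 212 CPM in sham, without overlap, and its change of -0.44 ± 0.151 missed the threshold (edgeR adjusted p = 0.0571). It was -0.12 at 1 month and 0.14 at 3 months. Neu1 had changes of 0.08, 0.00 and 0.53, with 42.1 and 72.1 CPM at 3 months, against 52.0, 41.6 and 25.1 CPM in sham.

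Of the 6 lipid-handling proteins and their helpers, 4 rose at 7 days, 3 at 1 month and 5 at 3 months, with median changes of 0.89, 0.89 and 1.64. Lipa, the acid lipase that hydrolyses cholesteryl esters and triglycerides, had 40.0, 30.0 and 21.7 CPM in sham, 141, 211 and 191 CPM at 7 days, 91.5, 119 and 122 CPM at 1 month, and 172 and 214 CPM at 3 months. It rose by 2.56 ± 0.233, 1.86 ± 0.228 and 2.65 ± 0.248 (edgeR adjusted p = 3.11e-06, 8.04e-05 and 5.25e-06), and the 1-month libraries lay between sham and the 7-day libraries without overlap. The sterol carriers of the lysosome differed. Npc2, the soluble one, had 196, 96.2 and 107 CPM in sham, 225, 325 and 293 CPM at 7 days, 275, 372 and 439 CPM at 1 month, and 555 and 646 CPM at 3 months, and rose by 1.08, 1.44 and 2.17. Npc1, the membrane-bound one, had 320.2 to 389 CPM in all injured libraries, against 292, 279 and 287 CPM in sham, with changes of 0.29, 0.27 and 0.32 that were not called.

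Grn encodes progranulin, a secreted and lysosomal protein whose fragments support lysosomal enzymes, and lies on chromosome 11 from 102430315 to 102437048 on the plus strand. It had 199, 83.7 and 97.8 CPM in sham, 663, 1009.9 and 896 CPM at 7 days, 508, 714 and 759.7 CPM at 1 month, and 727 and 961 CPM at 3 months. All injured libraries exceeded all sham libraries, and the changes were 2.75 ± 0.301, 2.38 ± 0.296 and 2.73 ± 0.318 (edgeR adjusted p = 1.65e-05, 9.38e-05 and 3.71e-05). Psap, the precursor of the saposins that help enzymes reach sphingolipids, was already abundant in sham, at 2815, 1603 and 1951 CPM. It had 2189, 3193 and 3331 CPM at 7 days, 2384, 2679.6 and 2892 CPM at 1 month, and 4096 and 5034 CPM at 3 months. It overlapped with sham at the first 2 times, at 0.45 ± 0.221 and 0.32 ± 0.221, and rose at 3 months by 1.10 ± 0.244 (edgeR adjusted p = 0.00724). Without sham replicate 1, Psap was also called at 7 days, at 0.71 (edgeR adjusted p = 0.0140). Asah1, the acid ceramidase, was called at 7 days (0.70 ± 0.167) and 3 months (0.87 ± 0.184) and had 0.35 ± 0.167 at 1 month.

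Of the 5 membrane proteins 3 rose at 7 days, 1 at 1 month and 3 at 3 months, with median changes of 0.81, 0.46 and 0.63. Lamp1, a heavily glycosylated protein that lines the lysosomal membrane, had 621, 396 and 400.1 CPM in sham, 785, 865 and 867 CPM at 7 days, 669, 785 and 729.8 CPM at 1 month, and 860.0 and 1017 CPM at 3 months, and rose by 0.83 ± 0.187, 0.62 ± 0.186 and 0.99 ± 0.204. Lamp2, its relative that also serves chaperone-mediated autophagy, rose at 7 days by 0.82 ± 0.164 and had 0.17 and 0.43 at the later times. Without sham replicate 1, Lamp2 was also called higher at 3 months. Cd63, a tetraspanin of late endosomes and exosomes, had 366, 176 and 189 CPM in sham, 379.8, 450.5 and 455 CPM at 7 days, 301, 386 and 402 CPM at 1 month, and 553 and 610.3 CPM at 3 months. It was called at 7 days (0.81 ± 0.238) and 3 months (1.25 ± 0.261), and at 1 month sham replicate 1 lay within the range of the injured libraries (0.57 ± 0.237, edgeR adjusted p = 0.144). Without that sham library Cd63 was called at 1 month too, at 0.99 (edgeR adjusted p = 0.000776).

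Mcoln1, the calcium channel through which the lysosome signals to Tfeb, had 37.2, 37.1 and 29.1 CPM in sham, 35.3, 39.2 and 36.0 CPM at 7 days, 47.8, 48.0 and 46.5 CPM at 1 month, and 52.1 and 54.7 CPM at 3 months. Its libraries at the later times lay above all sham libraries, and it was called at 3 months alone (0.63 ± 0.184, edgeR adjusted p = 0.0366). Scarb2, the receptor that carries glucocerebrosidase to the lysosome, had changes of 0.51, 0.00 and 0.29 that were not called, and without sham replicate 1 it was called at 7 days, at 0.72 (edgeR adjusted p = 0.00474). Tfeb, on chromosome 17 from 47737030 to 47792419 on the plus strand, had 47.1, 25.2 and 30.0 CPM in sham, 26.5, 28.7 and 33.4 CPM at 7 days, 29.6, 30.2 and 29.5 CPM at 1 month, and 45.2 and 54.2 CPM at 3 months. The injured libraries lay within the sham range at 7 days and 1 month and overlapped with it at 3 months, with changes of -0.21, -0.20 and 0.54 (edgeR adjusted p = 0.613, 0.665 and 0.185). Without sham replicate 1 the changes were 0.10, 0.11 and 0.85, above 0 at all 3 times, and the last was called (edgeR adjusted p = 0.0131).

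Between the injured groups of sorted cells few lysosomal genes passed the adjusted test. At 1 month against 7 days 0 rose and 1 fell, where 1.52% and 1.09% of all genes did; 5 of 32 had an unadjusted p under 0.05, near the 15.2% of all genes, and DESeq2 called 0 higher and 2 lower. The 1 that fell was Lamp2, at 284, 302 and 315 CPM at 1 month, against 474, 498 and 442 CPM at 7 days, without overlap (-0.65 ± 0.164, edgeR adjusted p = 0.0479). This call was lost when any 1 of the 6 libraries was left out. At 3 months against 1 month edgeR called 0 higher and 0 lower, where it called 0.103% and 0.284% of all genes, 18 members and 11.8% of all genes had an unadjusted p under 0.05, and DESeq2 called 3 higher. All 32 log2 changes were above 0, with a median of 0.58 beside 0.00 for all genes, although Ctsk was below 0 without 3-month replicate 1 (-0.18) and Npc1 without 3-month replicate 3 (-0.06) or with total-count scaling (-0.02), and for 26 members both 3-month libraries were above all 1-month libraries, as for 15.9% of all genes. The largest was Ctss, at 1.19 ± 0.417 (edgeR adjusted p = 0.270). With the 5 libraries of these 2 groups fitted alone, 19 members were called higher. The shares of all genes called in that fit and by DESeq2 are not given here. Whether these counts of members stand out from all genes was therefore not judged. The microglia and macrophage markers moved in the same way, with 0 of 18 called and a median change of 1.06. The part of those cells in the late values was not tested.

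In whole tissue the same genes fell between 1 and 3 months. At 3 months against 1 month 0 rose and 26 of 31 fell, where 6.69% of 19652 genes rose and 8.01% fell, and for 29 members every 3-month library was below every 1-month library, as for 19.8% of all genes. The median log2 change was -0.60 beside -0.0025 for all genes. The 26 were all members tested other than Ctsk, Gaa, Npc1, Scarb2 and Mcoln1. By role 9 of 10 cathepsins, both other peptidases, 6 of 7 sugar-chain enzymes, 5 of 6 lipid-handling proteins, 3 of 5 membrane proteins and Tfeb fell. The number called was 13 without 1-month replicate 1, 16 without 3-month replicate 3, and 27 without 3-month replicate 1, the library rich in neutrophil markers.

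Ctsd fell most, with 985, 691 and 846 CPM at 3 months, against 3168, 3469 and 2741 CPM at 1 month (-1.89 ± 0.148, edgeR adjusted p = 0.00202). Grn had 223, 155 and 191 CPM at 3 months, against 567, 661 and 511 CPM at 1 month (-1.61 ± 0.149, edgeR adjusted p = 0.00290). Ctsz had 230.3, 162 and 193 CPM at 3 months, against 541, 624 and 476 CPM at 1 month (-1.49 ± 0.147, edgeR adjusted p = 0.00301). In each of these genes the groups were far apart, and 3-month replicate 2 was the lowest library. Naglu, at 33.5, 22.0 and 31.2 CPM at 3 months, against 73.7, 81.4 and 59.9 CPM at 1 month, fell by 1.31, and Ctsa, at 238, 181 and 208 CPM at 3 months, against 480.2, 546 and 445 CPM at 1 month, fell by 1.23. Ctsb had 1762, 1441 and 1573 CPM at 3 months, against 3687, 4077 and 3331 CPM at 1 month (-1.22 ± 0.109), and Ctss had 424, 396 and 416 CPM at 3 months, against 803, 1011 and 787 CPM at 1 month (-1.07 ± 0.106). None of these 4 genes overlapped between the groups.

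Smaller decreases were called for Lamp1, Psap and Tfeb, and these calls were lost without 1-month replicate 1 and by the replicate block. That of Psap was also lost without any of 4 other libraries, and that of Tfeb without 1-month replicate 2 or 3-month replicate 3. Lamp1 had 695, 662 and 677 CPM at 3 months, against 934, 1004 and 925 CPM at 1 month (-0.49 ± 0.0650), and Psap had 2876, 2486 and 2575 CPM at 3 months, against 3374, 3566 and 3259 CPM at 1 month (-0.36 ± 0.0837). Tfeb, at 31.4, 26.0 and 30.6 CPM at 3 months, against 43.4, 40.4 and 40.5 CPM at 1 month, fell by 0.50 (edgeR adjusted p = 0.0138). Mcoln1 was also lower in each 3-month library, at 60.8, 58.8 and 59.3 CPM, against 67.2, 66.1 and 69.6 CPM at 1 month, but its change of -0.18 ± 0.0533 was not called (edgeR adjusted p = 0.0588). Without 3-month replicate 1, Mcoln1 was called lower. Ctsk, at 26.0, 20.8 and 35.2 CPM at 3 months, against 22.0, 33.6 and 21.0 CPM at 1 month, overlapped between the groups. Microglia and macrophage markers again moved with the lysosomal genes: 15 of 18 fell, to 2647 to 3829 CPM in sum at 3 months, against 6645 to 8972 CPM at 1 month. Of the 8 neutrophil markers 6 rose, to 254 to 2406 CPM in sum at 3 months, against 42.1 to 82.1 CPM at 1 month. Their part in the decrease was not tested.

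Sorted cells and tissue were set side by side in a fit of the 11 libraries from 1 and 3 months. Table, strain, digestion and sorting all differ between the 2 kinds of sample and cannot be told apart from the cell type. At 1 month 6 members of 31 were higher and 13 lower in sorted cells than in tissue, where 23.3% and 28.2% of 23259 genes were. The count of higher members is near the share of all genes. The higher ones were Npc1, Ctsc, Man2b1, Ctss, Asah1 and Gusb. Npc1 averaged 332 ± 12.5 CPM in sorted cells and 151 ± 0.473 CPM in tissue (SD, n = 3 each; log2 change 1.13 ± 0.0739, edgeR adjusted p = 2.29e-07). Ctsk averaged 7.88 ± 0.754 CPM in sorted cells and 26.3 ± 7.11 CPM in tissue (-1.74 ± 0.269, edgeR adjusted p = 0.000214). Gaa averaged 206 ± 8.23 CPM in sorted cells and 413 ± 21.8 CPM in tissue, so that its level fell by 1.00 ± 0.0694 on the log2 scale in sorted cells relative to tissue (edgeR adjusted p = 3.63e-07). Ctsd and Grn were not called, at -0.37 ± 0.191 and 0.09 ± 0.168. The count of higher genes was 3 without 1-month sorted replicate 2 or 3, or without 1-month tissue replicate 1 or 3.

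At 3 months 25 members were higher and 3 lower in sorted cells than in tissue, where 22.5% and 28.2% of all genes were. Ctss averaged 2657 ± 361 CPM in sorted cells (SD, n = 2) and 432 ± 15.4 CPM in tissue (SD, n = 3), a log2 change of 2.62 ± 0.169 (edgeR adjusted p = 2.71e-07). Ctsd averaged 3752 ± 1006 CPM in sorted cells and 881 ± 154 CPM in tissue, a log2 change of 2.09 ± 0.212 (edgeR adjusted p = 9.31e-06). Ctsz and Man2b1 were higher by 2.26 and 2.04, and Ctsk, Gaa and Mcoln1 were lower, by -1.59, -0.80 and -0.33. Tfeb, lower in sorted cells at 1 month (-0.58 ± 0.105), was higher in them at 3 months (0.59 ± 0.116).

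The estimated change at 3 months against 1 month was above 0 in sorted cells for all 32 members and below 0 in tissue for 30 of 31, and the difference itself was tested as an interaction. For 25 of 31 members the change at 3 months against 1 month was higher in sorted cells than in tissue and for 0 lower, where 5.92% and 8.08% of all genes were, and all 31 values were above 0, of which those of Ctsk and Npc1 turned below 0 when certain single libraries were left out. The median was 1.20 beside -0.08 for all genes. Ctsd had the largest difference, 2.46 ± 0.285 (edgeR adjusted p = 0.000905), followed by Ctsz at 2.25, Ctss at 2.19, Naglu at 1.93 and Grn at 1.89. The 6 not called were Ctsk (0.15), Gaa (0.20), Neu1 (0.70), Npc1 (0.06), Scarb2 (0.29) and Mcoln1 (0.28). All 18 microglia and macrophage markers were called in the same direction, with a median of 2.06, and 1 of 12 astrocyte markers was called, in the other direction. Their part in this difference was not tested.

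**Figure D4:**
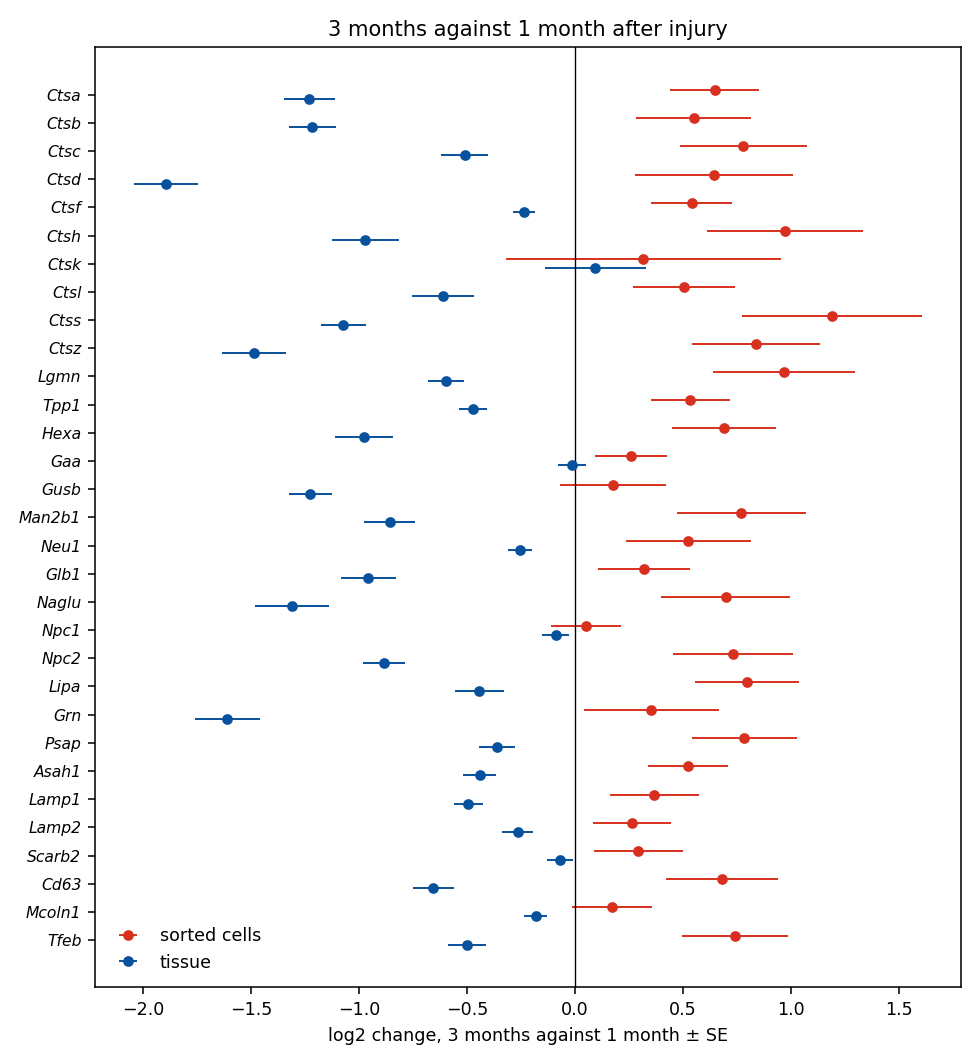
Log2 change at 3 months against 1 month, with standard errors, for each of 31 lysosomal genes in sorted cells (red, upper of each pair) and in tissue (blue). The sorted values lie above 0 for all 31 genes, and the tissue values below 0 for all but Ctsk, at 0.09.

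Calls were also counted by promoter. At 7 days against sham 7 of the 10 members with CACGTG in any window rose and 1 fell, and 13 of the 17 without it rose. At 3 months against sham 8 of the 10 with it rose, and 13 of the 17 without it did. In tissue at 3 months against 1 month 8 of the 10 with it fell, and 15 of the 17 without it did. Of all genes 9.87% rose and 8.41% fell at 7 days, 6.78% rose at 3 months, and 8.01% fell in tissue. Calls of all genes were not split by promoter, and no test was made of the counts by promoter.

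By length-corrected level, in CPM per kilobase of exon, the order of the members differed between samples. In sham Psap was first, at 774 ± 227, ahead of Lamp1 at 177 ± 48.2, Ctss at 145 ± 116 and Ctsd at 120 ± 72.0 (SD, n = 3), and the last 3 overlapped. At 7 days Ctsd, at 1168 ± 286, and Psap, at 1058 ± 227, overlapped, and Ctss followed at 724 ± 95.5. At 1 month Ctsd was at 1104 ± 270, Psap at 966 ± 93.0 and Ctss at 926 ± 221, all overlapping. At 3 months Ctss was at 2111 ± 322, Ctsd at 1724 ± 490 and Psap at 1664 ± 242 (SD, n = 2). Ctsd overlapped with both others there, and both Ctss libraries lay above both Psap libraries. In tissue Psap led at 3 months, at 964 ± 74.5 beside 358 ± 62.6 for Ctsd, and Ctsd, at 1330 ± 156, and Psap, at 1239 ± 56.5, overlapped at 1 month (SD, n = 3). Galns and Ctsk were last in sham, at 3.12 ± 1.40 and 1.12 ± 1.09, and Tfeb and Mcoln1 were the lowest in tissue.

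Other lysosomal genes were read from lists that do not hold the 32. Among 34 other hydrolases 12 rose and 3 fell at 7 days, 10 rose and 3 fell at 1 month, and 16 rose and 2 fell at 3 months, with medians of 0.41, 0.15 and 0.49. Of all genes 9.87%, 6.23% and 6.78% rose and 8.41%, 5.83% and 4.93% fell at these times. The counts of hydrolases that fell are near those shares. Acp5, the tartrate-resistant phosphatase of osteoclasts and macrophages, rose by 5.48 ± 0.896 at 7 days and Pld3, a nuclease of the lysosome, by 1.32 ± 0.231, while Smpd1, the acid sphingomyelinase, fell by 0.83. Among 23 other membrane proteins tested, 8 rose and 4 fell at 7 days, led by Gpnmb, a glycoprotein known from macrophages and pigment cells, at 965 ± 332 CPM at 7 days, against 2.46 ± 2.02 CPM in sham (8.67 ± 0.685). Cd68, the macrophage relative of the Lamp proteins, rose by 3.85 ± 0.444, and Abcb9, a peptide transporter, fell by 3.10. Cd68 and Laptm5 are also on the microglia and macrophage list. In tissue at 3 months against 1 month 2 of the 34 hydrolases rose and 22 fell, and 0 of the 23 membrane proteins rose and 10 fell. Of all genes in tissue 6.69% rose and 8.01% fell.

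Lists were also read for the machinery around the enzymes. Of 20 proton pump subunits 4 rose and 0 fell at 7 days, 2 rose at 1 month and 3 at 3 months, and in tissue 2 rose and 2 fell. Tcirg1 rose by 1.24, 1.36 and 2.35. Atp6v0d2, a subunit known from osteoclasts and macrophages, had no count in the 3 sham libraries, where the limit of 3 counts per library is at most 0.182 CPM, and 11.3 to 15.4 CPM at 7 days and 57.5 to 83.1 CPM at 3 months, which is at least 62.1-fold and 317-fold higher. Of 12 genes for the sorting and activation of lysosomal enzymes 2 rose and 1 fell at 7 days: Sumf1, which activates sulfatases, by 0.85, Gnptab, which makes the mannose-6-phosphate tag, by 0.47, and the sorting receptor Sorl1, by -1.08. Of 5 cathepsin inhibitors tested 3 rose and 1 fell at 7 days. Cst7, an inhibitor of leukocytes, had 32.4 ± 0.995 CPM at 7 days, against 0.780 ± 1.35 CPM in sham (5.20 ± 0.753), Cstb rose by 1.64, and Cst3, the abundant cystatin C, fell by 1.11 (edgeR adjusted p = 0.0189). Of 10 regulators around Tfeb 2 rose at 7 days, 1 at 1 month and 3 at 3 months. Tfe3 was called at 1 month (0.83 ± 0.215) and 3 months (1.27 ± 0.236), and Mitf at 3 months (1.07 ± 0.253). At 7 days 9.87% of all genes rose and 8.41% fell, and the counts of sorting genes and of regulators that rose are near those shares. At 1 month the counts of regulators and pump subunits that rose are near the 6.23% of all genes, and in tissue those of pump subunits are near 6.69% and 8.01%. At 3 months 6.78% of all genes rose.

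In cultured astrocytes the knockdowns gave no call among the 32 genes. The libraries labelled Zeb2os knockdown had 3.14 and 4.32 CPM of Zeb2os, against 3.80 and 5.82 CPM in their controls, which overlap (log2 change -0.36 ± 0.354, edgeR adjusted p = 0.735), so the targeted gene did not separate these libraries from their controls. The Zeb2 libraries had 16.1 and 23.2 CPM of Zeb2, against 134 and 147 CPM in their controls (-2.83 ± 0.328, unadjusted p = 0.000147, edgeR adjusted p = 0.999). Zeb2os lies inside Zeb2 on the opposite strand, and reads of the 2 genes cannot be told apart without a stated strand setting. Nothing in the labels says that the 2 libraries of a group were separate cultures, so these p-values measure the spread between samples, which may be technical.

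In the libraries labelled Zeb2os knockdown edgeR called 0 members higher and 0 lower, where it called 0.121% and 0.0675% of 20741 genes, and 4 members of 32, beside 11.7% of all genes, had an unadjusted p under 0.05, so the members' count is near that of all genes. These were Naglu, with 44.0 and 47.8 CPM in the knockdown libraries, against 26.7 and 30.4 CPM in controls (0.69 ± 0.202, edgeR adjusted p = 0.231), Ctss, with 21.3 and 22.0 CPM, against 41.2 and 26.6 CPM in controls (-0.65 ± 0.247), Ctsc (-0.61 ± 0.247) and Ctsk (0.57 ± 0.245). In none of the 4 did the groups overlap, as was so for 21.3% of all genes in the higher and 23.4% in the lower direction. With 1 control left out, the other is assumed to vary as the knockdown pair did. Some members were called when either control was left out. A fit with 1 control has no spread between controls, so these calls were not read as results. Ctsd had 2407 and 1850.0 CPM in the knockdown libraries, against 2366 and 1164 CPM in controls, with a 95% interval of the log2 change from -0.47 to 1.01.

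In the Zeb2 set edgeR called 0 members higher and 0 lower, as it did for 0% of all 17600 genes tested. An unadjusted p under 0.05 was found for 0 members and for 681 of all genes (3.87%), so the members' count is near that share. The log2 changes ran from -0.69 for Npc1 to 0.74 for Ctsf. Ctsd had 785 and 1433 CPM in the Zeb2 knockdown, against 1281 and 1010.4 CPM in controls, with an interval from -1.06 to 0.96. Tfeb had 12.9 and 10.4 CPM, against 7.72 and 10.2 CPM in controls, with an interval from -0.50 to 1.26. Leaving out replicate 2 of the Zeb2 knockdown leaves 1 library assumed to vary as the other groups did. Some members were then called in this set and for the difference between the 2 knockdowns, and these calls were not read as results. With all libraries the difference between the 2 knockdowns was called for 0 members in each direction, as for 0% of 20685 genes. Its unadjusted p was under 0.05 for 2 of 32 members, near the 7.05% of all genes. Intervals this wide leave changes of about 2-fold undetected for many members, so these counts do not show that the genes did not respond. The cultures held 0.831 to 1.16% of their counts in the 32 genes, with 149 to 614 CPM of microglia and macrophage markers in knockdown libraries, against 106 to 597 CPM in controls. Fibroblast and pericyte markers summed to 3010 to 5358 CPM in knockdown libraries and to 3582 to 8152 CPM in controls. Astrocyte markers summed to 681 and 702 CPM in libraries labelled Zeb2os knockdown, against 1324 and 1406 CPM in their controls. In the Zeb2 set they summed to 1217 and 1305 CPM in the knockdown, against 901 and 1407 CPM in controls. The name astrocyte for these cultures is that of the labels.

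**Figure D5:**
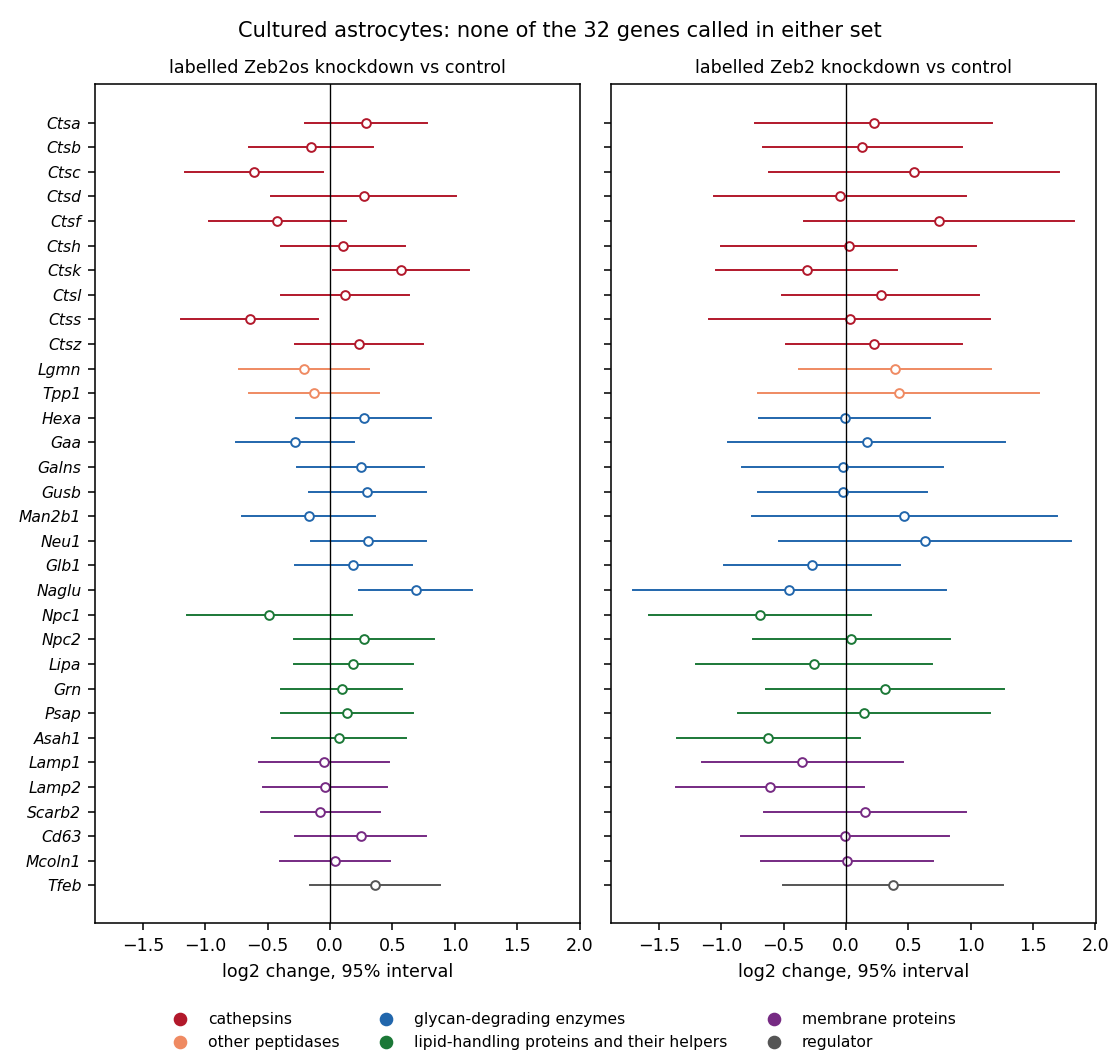
Log2 change of each of the 32 genes with its 95% interval in libraries labelled Zeb2os knockdown against their controls and in the Zeb2 knockdown against its controls, 2 libraries a group. No gene passed the test (edgeR adjusted p under 0.05) in either set.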

How the data were processed

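The authors deposited raw counts of reads for each gene, with no normalisation, in 4 tables (sorted cells, tissue, Zeb2os set, Zeb2 set). The build mm10, DESeq2, Cufflinks 2.2.1, TopHat2 2.1.0 and FastQC are named, without role or order, per the submitters' processing notes. Counter, annotation and strand setting are not given in the sources used here, so genes that overlap on either strand are uncertain. Identifiers without a match in the Zeb2 table (33, with 0.00161% of its counts) were left out.

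Each table was fitted on its own with edgeR 4.0.16 (R 4.3.3): filterByExpr at a minimum count of 10, TMM scaling, the quasi-likelihood F test and Benjamini-Hochberg adjustment over all genes tested, with calls at an adjusted p under 0.05. The 4 sorted groups shared a fit. The comparison of sorted cells with tissue, its interaction and the difference between knockdowns used joint fits over shared genes. CPM were computed from the deposited counts with TMM-scaled totals, and log2 changes carry their standard error. Exon lengths came from GENCODE (GRCm38). The test was checked on simulated data. Alternatives were RLE or total-count scaling, no filter, DESeq2 1.42.0, the compared groups alone, a replicate block and leaving out each library.

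The members and lists were chosen with earlier results of these data known. All members may be named. Values per library are given for members of each role and for the 5 called members with the largest change in each direction in each comparison, and other lists are represented by up to 4 called genes with the largest change.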

Additional observations from a re-analysis of the deposited data

Results flagged for a closer look

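The change at 3 months against 1 month differed between sorted cells and tissue by the test of that difference for 25 of 31 lysosomal genes, and it was higher in sorted cells for each of the 25 (edgeR, adjusted p under 0.05). Among cathepsins the difference on the log2 scale was 2.46 for Ctsd, 2.25 for Ctsz, 2.19 for Ctss, 1.87 for Ctsh, 1.80 for Ctsa, 1.69 for Ctsb, 1.22 for Ctsc, 1.04 for Ctsl and 0.70 for Ctsf. Among the other peptidases and the sugar-chain enzymes it was 1.49 for Lgmn, 0.93 for Tpp1, 1.93 for Naglu, 1.59 for Hexa, 1.55 for Man2b1, 1.33 for Gusb and 1.20 for Glb1. Lipid-handling genes had differences of 1.89 for Grn, 1.54 for Npc2, 1.17 for Lipa, 1.07 for Psap and 0.89 for Asah1. Cd63 had 1.26, Lamp1 0.78, Lamp2 0.45 and Tfeb 1.16. The same 25 genes were called when any 1 of the 11 libraries was left out. No group held enough libraries for the test of a single outlying library, which needs at least 4.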

How the results depend on the processing

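No called change of a member reversed its direction under the alternatives tried, and no value whose sign turned was called. Signs of values that were not called did turn under 1 or more alternatives, for 3 of 7 such members at 7 days against sham, 3 of 11 at 1 month, 0 of 7 at 3 months, 9 of 31 at 1 month against 7 days, 2 of 32 at 3 months against 1 month, 2 of 5 in tissue, 13 of 32 in the Zeb2os set and 21 of 32 in the Zeb2 set. With RLE scaling, total-count scaling or DESeq2, 2 members in place of 1 were lower at 7 days against sham, Gaa being the second. At 1 month against 7 days the compared groups alone gave 3 higher and 3 lower, the absence of a filter and DESeq2 gave 2 lower each, and the replicate block gave 0 lower. At 3 months against 1 month in sorted cells 0 were called higher, but 7 without a filter, 3 by DESeq2 and 19 with the compared groups alone. The shares of all genes called under these alternatives are not given here, and the cause of these differences was not tested. Total-count scaling moved the median of all genes to -0.20 at 3 months against sham, -0.13 at 7 days against sham, -0.10 for the difference between sorted cells and tissue, -0.18 and 0.15 in the Zeb2os and Zeb2 sets, and -0.34 for the difference between knockdowns.

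Leaving out 1 library at a time gave 22 to 26 members higher and 1 to 2 lower at 7 days against sham, 16 to 20 higher and 0 to 1 lower at 1 month, and 19 to 27 higher and 0 to 0 lower at 3 months. It gave 0 to 0 higher and 0 to 0 lower both at 1 month against 7 days and at 3 months against 1 month in sorted cells. In tissue it gave 0 to 0 higher and 13 to 27 lower. Sorted cells against tissue had 3 to 6 higher and 10 to 13 lower at 1 month and 24 to 25 higher and 3 to 4 lower at 3 months, and their interaction 25 to 26 higher and 0 to 0 lower. In the cultures each such fit leaves 1 library in a group, so its counts of calls are not given.

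The labels number the replicates. Same-numbered libraries did not deviate together in sorted cells or tissue. Correlations of their deviations ran from -0.04 to 0.08 over 15 pairs of sorted groups and from -0.27 to -0.01 over 3 tissue pairs. They were -0.03 for the Zeb2os cultures and 0.39 for those of the Zeb2 set. With 2 libraries a group the 2 pairs of a culture set give the same value, so a pairing cannot be judged there. With the replicate block 12 of the 26 tissue calls remained, and Tpp1 at 7 days, Lamp1 at 1 month and Mcoln1 at 3 months against sham were not called.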
